A study of Mus musculus with 100 samples.

Results

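Mast cells are represented here by 8 genes of the count table: the granule proteases Cma1, Mcpt4, Tpsb2 and Cpa3, the receptor genes Kit, Fcer1a and Ms4a2, and the histamine-forming enzyme Hdc. They were chosen by name, as genes that mark mast cells, and all 8 were found among the 17310 genes tested. RNA was sequenced from whole knee joints of 3 inbred strains, MRL/MpJ, STR/ort and C57BL/6. The right knee was injured at an age of 10 weeks with a compressive load of 10 to 12 N, which ruptures the anterior cruciate ligament, and the contralateral knee of the injured animal was the uninjured joint. Joints were taken before any injury (0-day) and after it at 1-day, at 1-week and at 2-weeks. The 100 libraries formed 21 groups of 4 or 5, and the labels describe STR/ort as highly susceptible to post-traumatic osteoarthritis and MRL/MpJ as not susceptible to it.

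Mast cells arise from marrow progenitors and mature in tissues, where stem cell factor acting on the receptor tyrosine kinase KIT keeps them alive. Crosslinking of immunoglobulin E held by the high-affinity receptor FceRI empties their granules of histamine, heparin and proteases. In the knee they are known from the synovium, the fat pad and the joint capsule. Basophils, which circulate and form in marrow, share several of these genes, including both FceRI chains measured here, Hdc and Cpa3.

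Libraries of 0-day, 1-day and 1-week carried the batch label 1 and all 2-weeks libraries the batch label 2, so time after 1-week and batch cannot be told apart and no test was made across them. Library totals ran from 6182016 to 20986027 counts, and none of the 190 pairs of libraries within a group were identical. Joints of 1 group at 1-day and 1-week were not tied to animals by the labels, so p-values measure the spread between these libraries. A whole joint holds bone, marrow, cartilage, muscle and soft tissue, and in such a bulk sample fewer cells of a type and less RNA per cell cannot be told apart.

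Sequence before annotated start sites was looked at because the members fell into groups that varied together, as described later. Windows of 250 bases before a start site were taken from RefSeq on build GRCm38.p6 for 7 members. No window was held for Tpsb2. The start site used was not always the outer end of the gene as listed below. The Hdc window (chromosome 2, 126618679 to 126618928) lies inside the gene's span, and the windows of Cpa3, Fcer1a and Ms4a2 and a Kit window overlap theirs. The motif GATAA, bound by GATA factors, was searched on both strands and was present in 22.6% of all 32851 windows of this length. Cma1, Mcpt4, Cpa3, Fcer1a and Ms4a2 each held it, while neither of the 2 Kit windows nor the Hdc window did. The 5 windows with a match are shown 5′ to 3′ on the strand of the gene, with GATAA or its reverse complement TTATC, and the E-box CATGTG or its reverse complement CACATG, in capitals. CATGTG, 1 spelling of the E-box bound by MITF, was present in 12.3% of all windows and overlaps no GATAA by its letters.
Cma1, chr14:55944676-55944925, minus strand: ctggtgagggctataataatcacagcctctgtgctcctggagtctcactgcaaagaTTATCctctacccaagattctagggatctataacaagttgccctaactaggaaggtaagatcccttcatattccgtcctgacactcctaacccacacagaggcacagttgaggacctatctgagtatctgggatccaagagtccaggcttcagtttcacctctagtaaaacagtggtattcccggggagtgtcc
Mcpt4, chr14:56062311-56062560, minus strand: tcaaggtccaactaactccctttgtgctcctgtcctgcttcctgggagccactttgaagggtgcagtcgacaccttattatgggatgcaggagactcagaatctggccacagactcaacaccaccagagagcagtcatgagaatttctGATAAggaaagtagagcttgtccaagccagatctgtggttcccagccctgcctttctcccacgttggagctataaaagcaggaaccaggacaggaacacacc
Cpa3, chr3:20242182-20242431, minus strand: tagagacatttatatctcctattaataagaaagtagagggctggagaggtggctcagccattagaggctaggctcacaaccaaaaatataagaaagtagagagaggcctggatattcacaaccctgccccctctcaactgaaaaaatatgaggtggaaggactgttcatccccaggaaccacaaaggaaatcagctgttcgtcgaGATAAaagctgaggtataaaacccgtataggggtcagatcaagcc
Fcer1a, chr1:173227230-173227479, minus strand: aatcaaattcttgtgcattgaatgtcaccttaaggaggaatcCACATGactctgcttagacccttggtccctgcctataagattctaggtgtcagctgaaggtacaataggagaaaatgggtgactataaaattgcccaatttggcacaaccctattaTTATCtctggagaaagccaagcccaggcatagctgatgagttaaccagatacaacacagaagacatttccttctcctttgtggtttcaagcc
Ms4a2, chr19:11623720-11623969, minus strand: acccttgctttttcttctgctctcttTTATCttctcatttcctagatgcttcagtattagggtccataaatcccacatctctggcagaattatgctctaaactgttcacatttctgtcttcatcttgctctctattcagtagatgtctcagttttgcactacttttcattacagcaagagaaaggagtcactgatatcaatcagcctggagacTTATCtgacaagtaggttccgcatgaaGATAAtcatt
Ms4a2 held 3 matches to GATAA, beginning 224, 37 and 10 bases before the start site used. Those at 37 and 10 bases lie within the gene's span, which ends at 11623790. The other 4 windows held 1 each, at 194 bases in Cma1, 102 in Mcpt4, 45 in Cpa3 and 92 in Fcer1a. Fcer1a alone among these windows held CATGTG, at 208 bases. A match of letters is a description of these windows and says nothing of binding.

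Cma1 (chromosome 14, 55941451 to 55944675) and Mcpt4 (chromosome 14, 56059744 to 56062310) encode chymases and lie in the same cluster of granule protease genes. Tpsb2 (chromosome 17, 25366308 to 25368096) encodes a tryptase and Cpa3 (chromosome 3, 20215616 to 20242209) the mast cell carboxypeptidase. Kit (chromosome 5, 75574987 to 75656722) encodes the receptor for stem cell factor. Fcer1a (chromosome 1, 173221269 to 173227232) and Ms4a2 (chromosome 19, 11615517 to 11623790) encode the alpha chain, which binds immunoglobulin E, and the signal-amplifying beta chain of FceRI. Hdc (chromosome 2, 126593659 to 126624025) encodes histidine decarboxylase, which makes histamine.

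None of the 8 genes was at 0 in any library. The level is given as CPM (counts-per-million), with library sizes adjusted by the trimmed mean of M values (TMM). Median CPM over the 100 libraries was 55.7 for Hdc, 33.8 for Kit, 11.6 for Cpa3, 3.53 for Cma1, 3.30 for Ms4a2, 3.29 for Mcpt4, 2.15 for Fcer1a and 1.80 for Tpsb2. Levels between genes are compared per length, and per kilobase of exon the median was 8.73 CPM for Hdc, 7.65 for Cpa3, 3.79 for Kit, 3.23 for Cma1, 2.97 for Mcpt4, 2.15 for Fcer1a, 1.17 for Ms4a2 and 1.13 for Tpsb2. Hdc and Cpa3 were thus the most abundant members by length. Counts behind the low genes were small, with a lowest count of 4 for Tpsb2, 5 for Cma1, 7 for Fcer1a and 9 for Mcpt4 and Ms4a2.

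Cma1 had the widest range of group means. Within batch 1 (0-day to 1-week) its highest group mean was 4.28 times its lowest, and the same ratio was 3.24 for Tpsb2, 3.20 for Mcpt4, 2.64 for Ms4a2, 2.28 for Fcer1a, 1.89 for Cpa3, 1.75 for Hdc and 1.56 for Kit. Within batch 2 (2-weeks) it was 2.72 for Cma1, 2.57 for Fcer1a and 1.52 for Mcpt4. Over all 21 groups it was 8.68 for Cma1 and 5.16 for Mcpt4, ratios that set a batch 1 group against a 2-weeks group. With the groups of each gene put in order, every one of the 20 steps between neighbouring groups had overlapping libraries. The difference of neighbouring means was below the larger of their SDs at every step except 1, for Kit between uninjured MRL/MpJ and C57BL/6 joints at 2-weeks (41.6 and 37.6 CPM). Cma1 was highest in injured STR/ort joints at 1-day, at 9.88 ± 2.34 CPM (SD, n = 5), and lowest in uninjured C57BL/6 joints at 2-weeks, at 1.14 ± 0.595 CPM (SD, n = 5). Mcpt4 was highest in injured C57BL/6 joints at 1-day, at 8.33 ± 1.72 CPM (SD, n = 5), and lowest in uninjured STR/ort joints at 2-weeks, at 1.62 ± 0.682 CPM (SD, n = 5).

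**Figure D1:**
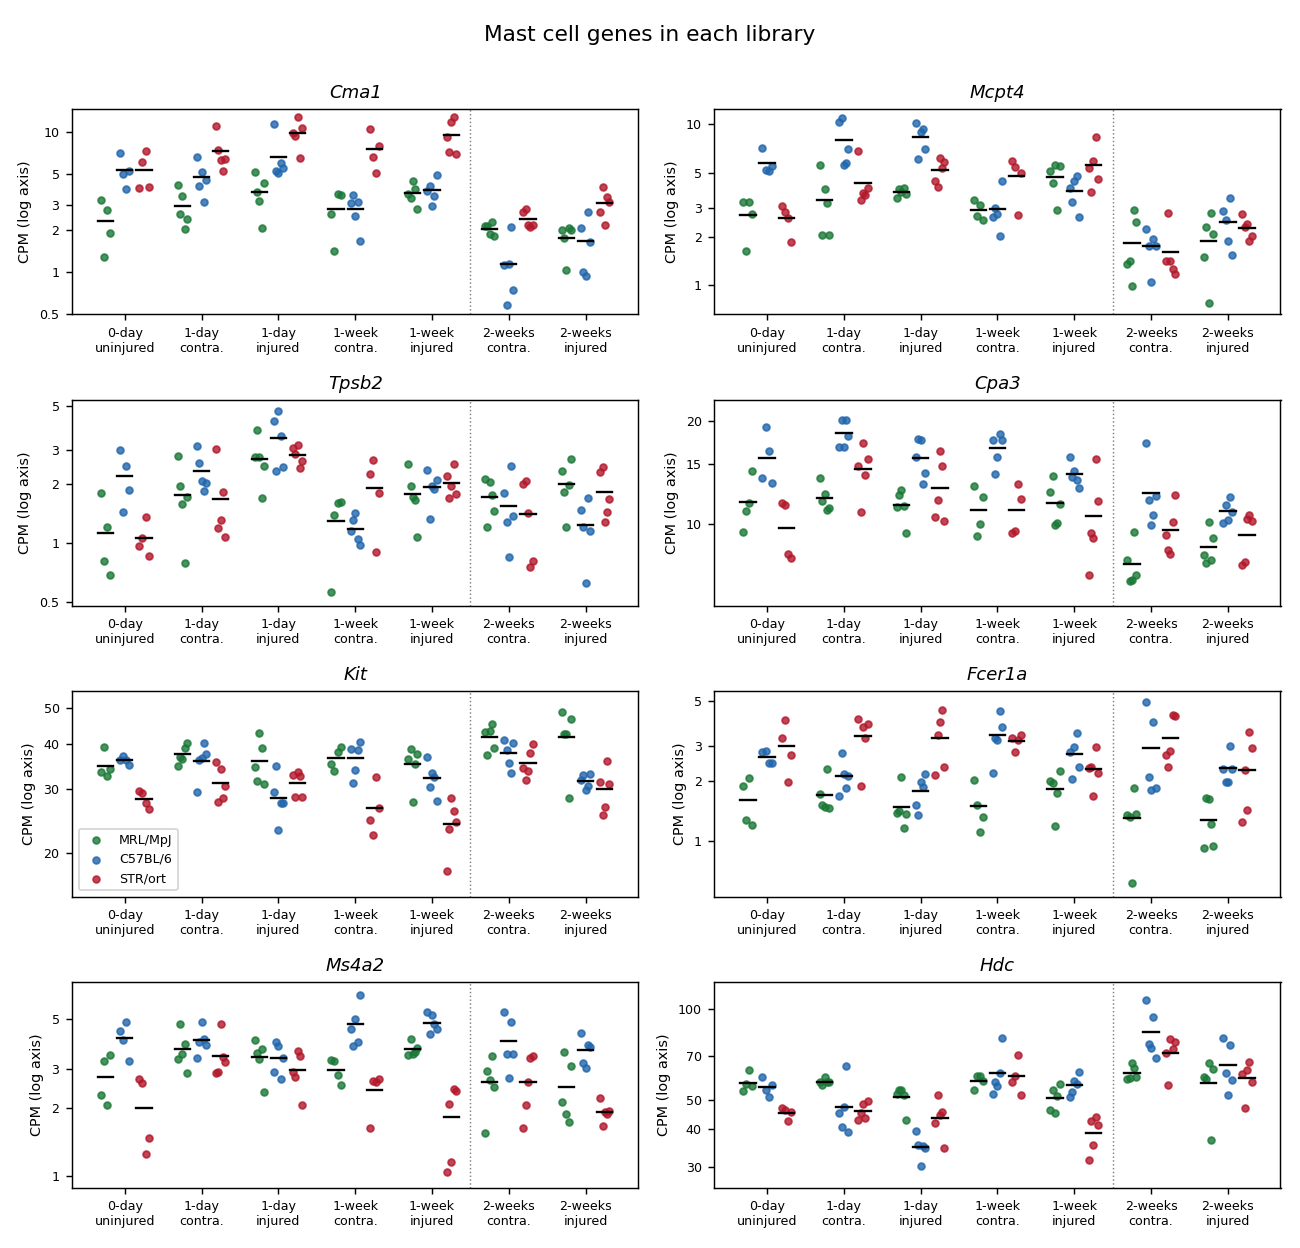
Level of each of the 8 genes in every library, in CPM (vertical axis, logarithmic), by time and joint (horizontal axis) with strains in colours. Points are libraries, black bars are group means, and the dotted vertical line separates the 2-weeks libraries, which are another batch. Cma1 libraries of STR/ort at 1-week lie at 5.10 CPM or above, and the highest Cma1 library of the other strains in injured joints of that time is at 4.93 CPM.

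Other cells that use these genes were present in the joints. The basophil protease gene Mcpt8 was at 57.1 ± 11.6 CPM in STR/ort, 27.4 ± 3.14 in MRL/MpJ and 29.4 ± 2.49 in C57BL/6 at 0-day (SD, n = 4 each), above each of the mast cell proteases. Summed CPM of the 4 basophil genes Mcpt8, Prss34, Cd200r3 and Il3ra ranged from 46.2 to 112 over group means and was highest in STR/ort in 7 of 7 sets of time and joint. Cd200r3 is also in the list of further mast cell genes used below, and Il3ra in that of growth factors, cytokines and their receptors. The sum does not show the order of each gene, as Prss34 was lower in STR/ort than in C57BL/6 in injured joints at 1-week. The 6 marrow neutrophil genes summed to between 7368 and 12506 CPM and were highest in MRL/MpJ in 7 of 7 sets. Fibroblast genes of synovium and connective tissue (Prg4, Pdgfra, Dpt, Pi16) were highest in STR/ort in 7 of 7 sets, between 581 and 11334 CPM. Melanocyte genes, of which 3 of 5 were in the table, summed to between 1.36 and 6.02 CPM. Skin was represented by 1 of 4 listed genes, at 1.00 to 3.06 CPM.

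Baseline differences between the strains were examined first, in uninjured joints at 0-day. C57BL/6 joints carried more Cma1, Mcpt4, Tpsb2 and Fcer1a RNA than MRL/MpJ joints, and STR/ort joints carried less Mcpt4, Tpsb2, Cpa3 and Ms4a2 than C57BL/6 joints. Cma1 and Fcer1a were also higher in STR/ort than in MRL/MpJ. A gene was called where its p, adjusted over all genes, was under 0.05 and its fold change over 1.5. C57BL/6 against MRL/MpJ gave 4 called members of 8, all higher, against 15.9% of all genes called. STR/ort against MRL/MpJ gave 2 of 8, both higher, against 14.8%. STR/ort against C57BL/6 gave 4 of 8, all lower, against 13.8%.

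Mcpt4 showed the C57BL/6 level most clearly at 0-day. Its libraries were at 7.15, 5.23, 5.11 and 5.50 CPM in C57BL/6, at 3.29, 1.63, 3.27 and 2.76 CPM in MRL/MpJ, and at 3.11, 2.84, 2.61 and 1.84 CPM in STR/ort. All 4 C57BL/6 libraries lay above all 8 of the other strains. The log2 difference was 1.12 ± 0.22 (SE) for C57BL/6 minus MRL/MpJ (adjusted p = 0.000613) and -1.17 ± 0.213 for STR/ort minus C57BL/6 (adjusted p = 0.000351).

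Cma1, its neighbour in the protease cluster, had another order of strains. MRL/MpJ libraries were at 3.29, 1.28, 2.76 and 1.90 CPM, C57BL/6 at 7.15, 5.07, 3.93 and 5.30 CPM, and STR/ort at 3.98, 6.16, 7.41 and 4.05 CPM. Libraries of C57BL/6 and STR/ort overlapped each other and lay above those of MRL/MpJ. The log2 difference from MRL/MpJ was 1.24 ± 0.286 in C57BL/6 (adjusted p = 0.00237) and 1.21 ± 0.292 in STR/ort (adjusted p = 0.00343).

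Tpsb2 followed Mcpt4, with 2.99, 1.45, 2.47 and 1.87 CPM in C57BL/6 and 0.970, 1.07, 1.36 and 0.859 CPM in STR/ort, groups that did not overlap. Its log2 difference for STR/ort minus C57BL/6 was -1.06 ± 0.313 (adjusted p = 0.0133). Ms4a2, at 4.44, 4.02, 4.84 and 3.24 CPM in C57BL/6, was at 2.72, 2.61, 1.25 and 1.47 CPM in STR/ort, again without overlap (log2 difference -1.07 ± 0.245, adjusted p = 0.00239). Cpa3 was lower in STR/ort by the same contrast, by a log2 difference of -0.72 ± 0.156 (adjusted p = 0.00162). Kit and Hdc differed between strains with adjusted p under 0.05 in 2 comparisons each at 0-day, but with folds under 1.5. Subtraction of 2 factors of unwanted variation estimated from 25 housekeeping genes (RUVg) left 1 of the 10 calls at 0-day, Fcer1a in STR/ort against MRL/MpJ, whose log2 difference of 0.89 ± 0.265 (adjusted p = 0.0144) became 1.11 (adjusted p = 0.0153). With TMM scaling that call was lost without MRL/MpJ replicate 2 or STR/ort replicate 2, where the adjusted p reached 0.0506. The calls of Tpsb2 and Fcer1a in C57BL/6 against MRL/MpJ were the least firm. Tpsb2 (0.92 ± 0.321, adjusted p = 0.0321) was also lost in DESeq2 and without MRL/MpJ replicate 2, 3 or 4 or C57BL/6 replicate 1 or 3 (adjusted p up to 0.129). Its log2 difference was 0.92 in DESeq2, 0.73 or above without any 1 library and 1.65 under RUVg with 2 factors. Fcer1a (0.74 ± 0.263, adjusted p = 0.0350) was lost under RUVg with 1 factor, in DESeq2 and without MRL/MpJ replicate 2 or 4 or C57BL/6 replicate 1 or 2 (adjusted p up to 0.131), with log2 differences of 0.47 under RUVg with 1 factor, 0.99 with 2, 0.73 in DESeq2 and 0.59 or above without any 1 library.

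The same strain comparisons were made in the joints collected after injury, separately for uninjured contralateral and injured joints. In contralateral joints 22 of 72 tests of a member gave a call and in injured joints 15 of 72. At 1-day, C57BL/6 against MRL/MpJ gave 2 of 8 members in contralateral joints (14.8% of all genes called) and 2 in injured joints (16.3%). STR/ort against MRL/MpJ gave 2 (22.6%) and 2 (20.3%), and STR/ort against C57BL/6 gave 3 (10.5%) and 2 (12.4%). At 1-week the same 3 comparisons gave 3 of 8 members (8.53% of all genes), 3 (24.4%) and 3 (22.2%) in contralateral joints, and 0 (9.47%), 2 (29.5%) and 2 (25.1%) in injured joints. At 2-weeks they gave 4 (9.83%), 1 (13.8%) and 1 (9.78%) in contralateral joints, and 1 (11.5%), 2 (18.9%) and 2 (10.4%) in injured joints. A single called member of 8 is 12.5%, and the differences are therefore described gene by gene.

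Cma1 was the member with the most strain calls, 14 in all with those at 0-day, and its mean CPM was highest in STR/ort in 7 of 7 sets of time and joint (6 of 7 without TMM scaling). At 0-day this rested on means of 5.40 CPM in STR/ort and 5.36 CPM in C57BL/6, which the fit placed the other way (log2 difference -0.03 ± 0.241). At 1-week, uninjured STR/ort joints were at 10.6, 6.65, 5.10 and 7.99 CPM, C57BL/6 joints at 3.12, 3.55, 2.50, 3.16 and 1.67 CPM, and MRL/MpJ joints at 2.60, 1.40, 3.63 and 3.57 CPM. Injured STR/ort joints of the same time were at 9.29, 7.18, 11.9, 12.8 and 6.97 CPM, against 3.81, 4.09, 2.95, 3.47 and 4.93 CPM in C57BL/6 and 3.64, 3.40, 4.45, 3.95 and 2.83 CPM in MRL/MpJ. In both joints the lowest STR/ort library was above the highest of C57BL/6 and MRL/MpJ. The log2 difference from C57BL/6 was 1.44 ± 0.246 in uninjured (adjusted p = 1.99e-05) and 1.31 ± 0.213 in injured joints (adjusted p = 7.98e-06).

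Over MRL/MpJ the STR/ort excess of Cma1 at 1-week was 1.42 in uninjured and 1.38 in injured joints on the log2 scale. At 1-day it was 1.39 ± 0.269 in uninjured (adjusted p = 7.41e-05) and 1.43 ± 0.25 in injured joints (adjusted p = 2.39e-05). Over C57BL/6 the excess at 1-day was 0.69 in uninjured joints (adjusted p = 0.0343) and was not called in injured ones. The uninjured call was lost under scaling to housekeeping genes and without C57BL/6 replicate 2, 4 or 5 or STR/ort replicate 1 or 2 (adjusted p up to 0.168). Injured STR/ort joints were then at 9.82, 9.37, 13.0, 6.51 and 10.7 CPM and injured MRL/MpJ joints at 5.23, 3.71, 3.23, 2.06 and 4.30 CPM, without overlap. Within the 2-weeks libraries the STR/ort minus C57BL/6 difference was 1.03 ± 0.277 in uninjured (adjusted p = 0.0059) and 0.85 ± 0.24 in injured joints (adjusted p = 0.00793). Against MRL/MpJ at 2-weeks the difference was called in injured joints, at 0.80 ± 0.233 (adjusted p = 0.00571, up to 0.0559 under RUVg with 2 factors), and was 0.22 in uninjured joints, which was not called. In those uninjured joints C57BL/6 was called below MRL/MpJ, the reverse of 0-day, at 1.12, 0.581, 1.14, 2.11 and 0.738 CPM against 2.13, 2.13, 1.87, 2.26 and 1.80 CPM. The log2 difference of -0.81 ± 0.281 (adjusted p = 0.0345) was lost under RUVg with 1 and 2 factors and without any of 7 libraries (MRL/MpJ replicates 1, 2 and 4 and C57BL/6 replicates 1, 2, 3 and 5), with an adjusted p of up to 0.104. Injured C57BL/6 joints at 1-day were also called above MRL/MpJ (0.87 ± 0.264, adjusted p = 0.00969), but without C57BL/6 replicate 1, whose 11.5 CPM stood above the others of its group, the adjusted p was 0.0707. Of the 14 calls between strains, 7 held under all alternative settings and 11 when any 1 library was left out.

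Mcpt4 did not share this order and was highest in C57BL/6 in 4 of 7 sets. Injured C57BL/6 joints at 1-day were at 10.2, 6.06, 8.93, 9.36 and 7.06 CPM and injured MRL/MpJ joints at 3.46, 3.98, 3.80, 4.03 and 3.66 CPM, without overlap. The log2 difference was 1.15 ± 0.232 (adjusted p = 0.000179), and 1.26 ± 0.235 in the uninjured joints of that time (adjusted p = 9.29e-05). Both of these calls held under every alternative and every library left out. The calls of Mcpt4 for STR/ort changed sign with time, from -0.82 ± 0.223 against C57BL/6 in uninjured joints at 1-day (adjusted p = 0.00554) to 0.67 ± 0.253 at 1-week (adjusted p = 0.0334). The difference between these times was not tested. Neither call held under RUVg with 1 factor, and the 1-week call was lost without any of 6 libraries (C57BL/6 replicates 1, 3 and 4 and STR/ort replicates 1, 2 and 4), with an adjusted p of up to 0.122. Tpsb2 gave no strain call after 0-day in either joint, with log2 differences from -0.68 to 0.65.

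Cpa3 was highest in C57BL/6 in 7 of 7 sets, with and without TMM scaling. Uninjured joints at 1-day were at 16.8, 20.2, 16.9, 20.2 and 18.1 CPM in C57BL/6 and at 13.6, 11.7, 12.2, 10.99 and 11.1 CPM in MRL/MpJ, without overlap. The log2 difference was 0.67 ± 0.125 (adjusted p = 8.49e-05), and its fold was under 1.5 under RUVg with 1 factor. All 4 calls of Cpa3 between strains were lost under RUVg, and none was made in injured joints.

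Fcer1a was the member whose MRL/MpJ level was lowest throughout. In uninjured joints at 1-week MRL/MpJ was at 2.04, 1.51, 1.11 and 1.32 CPM, C57BL/6 at 2.19, 3.28, 3.22, 4.45 and 3.74 CPM, and STR/ort at 3.27, 2.78, 3.21 and 3.38 CPM. No MRL/MpJ library reached the range of the other strains. The log2 difference was 1.20 ± 0.225 for C57BL/6 (adjusted p = 0.000234) and 1.11 ± 0.239 for STR/ort (adjusted p = 0.000369). STR/ort was called above MRL/MpJ in 6 of 7 sets and C57BL/6 in 4 of 7. The call of C57BL/6 at 1-week held under every alternative and every library left out, whereas that of STR/ort was lost under RUVg with 1 and 2 factors (adjusted p up to 0.233). Of all 12 strain calls of Fcer1a, 2 held under all alternatives and 8 with any 1 library left out. The mean sum of the 4 basophil genes was also lowest in MRL/MpJ in 7 of 7 sets. In uninjured joints at 1-week its libraries were at 48.9 to 52.5 CPM in MRL/MpJ, 56.4 to 84.1 CPM in C57BL/6 and 72.4 to 92.3 CPM in STR/ort, and the part of basophils in the Fcer1a difference was not tested.

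Ms4a2, the partner chain of the same receptor, had a different order, with STR/ort lowest in 6 of 7 sets. In injured joints at 1-week STR/ort was at 1.04, 2.09, 1.16, 2.44 and 2.39 CPM, MRL/MpJ at 3.45, 4.05, 3.51, 3.58 and 3.71 CPM, and C57BL/6 at 5.36, 4.27, 5.20, 4.74 and 4.52 CPM. The 3 strains did not overlap at all. The log2 difference of STR/ort was -1.41 ± 0.191 from C57BL/6 (adjusted p = 4.65e-07) and -1.01 ± 0.199 from MRL/MpJ (adjusted p = 7.67e-05). Uninjured joints at 1-week gave -0.95 ± 0.198 against C57BL/6 (adjusted p = 0.000271), and injured joints at 2-weeks -0.91 ± 0.224 (adjusted p = 0.00226). These 4 calls held under every alternative and every library left out. The basophil protease gene Prss34 was also lower in STR/ort than in C57BL/6 in injured joints at 1-week (log2 difference -1.05 ± 0.152, adjusted p = 1.39e-06), while Mcpt8 was not called there. The mean sum of the 4 basophil genes was instead highest in STR/ort there, as in 7 of 7 sets. The part of basophils in the Ms4a2 difference was not tested.

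Kit and Hdc, the most counted members, gave no strain call in any joint or time. Kit was below C57BL/6 or MRL/MpJ levels in STR/ort with adjusted p under 0.05 in several comparisons, always with a fold under 1.5. Kit in injured joints at 1-week was at 17.9, 23.2, 28.4, 26.1 and 24.4 CPM in STR/ort and at 36.4, 38.7, 27.6, 35.1 and 37.5 CPM in MRL/MpJ, with 1 library of each strain in the range of the other (log2 difference -0.55 ± 0.113, adjusted p = 0.000128). Hdc in injured joints at 1-week was at 38.8 ± 5.19 CPM in STR/ort (SD, n = 5) and 55.9 ± 4.18 in C57BL/6 (SD, n = 5). That log2 difference of -0.54 had an adjusted p of 6.38e-05 but a fold under 1.5.

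**Figure D2:**
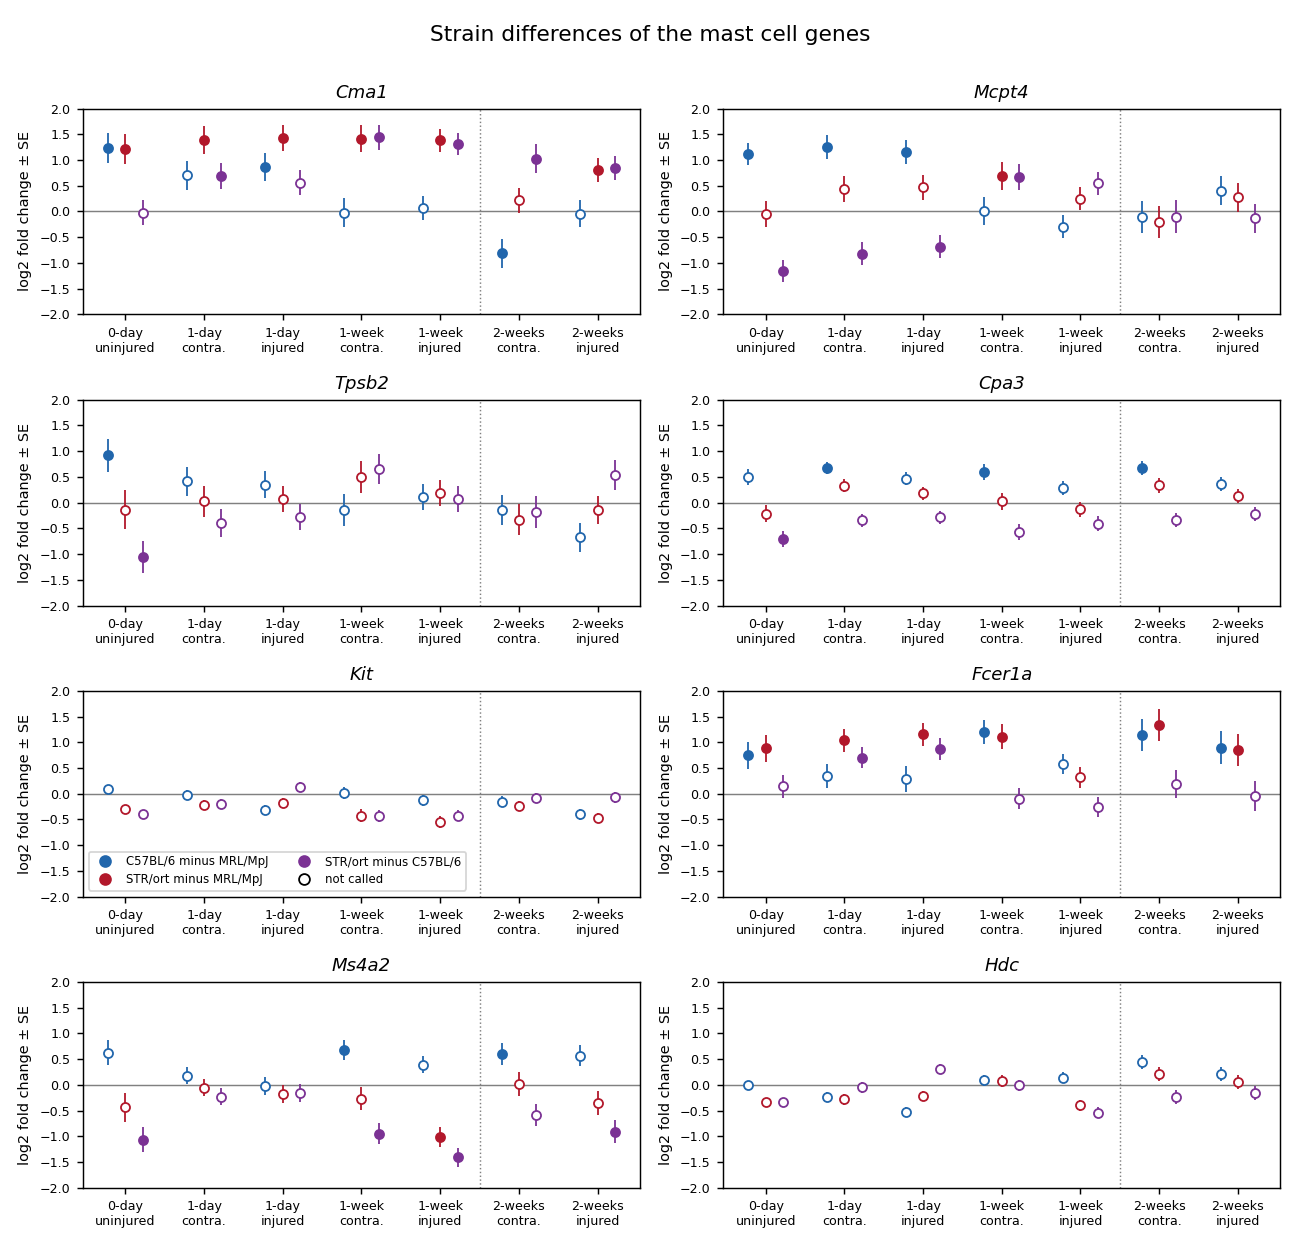
Log2 difference between strains (vertical axis) for each of the 8 genes by time and joint (horizontal axis), with 1 colour for each pair of strains. Points are the fitted differences, bars their SE, filled points passed both limits of a call, and the horizontal line is no difference. STR/ort minus MRL/MpJ for Cma1 lies between 1.21 and 1.43 up to 1-week, and STR/ort minus C57BL/6 for Ms4a2 reaches -1.41.

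The injury itself was compared next, injured against uninjured contralateral joints of the same strain and time. Hdc was lower in injured than in contralateral STR/ort joints at 1-week, and no other member was called in any strain at any time. At 1-day 0 of 8 members were called in MRL/MpJ (2.02% of all genes), 0 in C57BL/6 (5.6%) and 0 in STR/ort (4.31%). At 1-week 0 were called in MRL/MpJ (3.13%), 0 in C57BL/6 (5.82%) and 1 in STR/ort (9.21%). At 2-weeks the count was 0 in each strain, against 1.16% in MRL/MpJ, 2.95% in C57BL/6 and 4.66% in STR/ort. Of the 72 tests, 15 had an unadjusted p under 0.05. The share of all genes with such a p was not computed, so this count is no result about the members.

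Hdc was at 31.6, 42.4, 35.3, 43.7 and 41.2 CPM in injured STR/ort joints at 1-week and at 57.4, 59.7, 70.5 and 51.8 CPM in uninjured ones. The groups did not overlap, and the log2 difference was -0.63 ± 0.108 (adjusted p = 7.60e-05). Without injured replicate 1 it was -0.57 (adjusted p = 0.000437) and without uninjured replicate 3 it was -0.54 (adjusted p = 0.00117), both with a fold under 1.5. In this contrast 9.21% of all genes were called, 612 of 17310 lower. The 6 marrow neutrophil genes had a median log2 difference of -0.59 with 3 of 6 called lower, the 4 basophil genes -0.59 with 1 of 4, the 4 eosinophil genes -0.63 with 3 of 4, the 4 progenitor genes -0.56 with 0 of 4, and the 4 fast muscle genes -0.90 with 4 of 4, against -0.033 over all genes. Neutrophil and basophil precursors also make Hdc, and the part of these cells in this difference was not tested. Mean Hdc in uninjured STR/ort joints was 45.2 CPM at 0-day, 45.9 at 1-day and 59.9 at 1-week. In injured STR/ort joints it was 43.6 CPM at 1-day and 38.8 at 1-week. The difference at 1-week thus held both a higher uninjured and a lower injured level, and neither change with time was called.

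Below the limits of a call, the members leaned in different directions. The log2 difference was above 0 in 9 of 9 injury comparisons for Mcpt4, in 8 of 9 for Cma1 and in 8 of 9 for Tpsb2. It was above 0 in 2 of 9 for Cpa3, 2 of 9 for Ms4a2, 1 of 9 for Fcer1a, 0 of 9 for Kit and 0 of 9 for Hdc. The medians over the 9 comparisons were 0.47 for Tpsb2, 0.40 for Cma1 and 0.27 for Mcpt4, and between -0.23 and -0.07 for the other members. Genes measured in the same libraries share their errors, so these counts are a description and carry no test. The summed marrow neutrophil genes were lower in injured joints in 9 of 9 comparisons, at ratios of 0.683 to 0.970, and the basophil genes in 7 of 9.

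Tpsb2 came nearest to a call among the proteases. Injured STR/ort joints at 1-day were at 3.08, 2.86, 3.17, 2.41 and 2.61 CPM and uninjured ones at 3.01, 1.20, 1.31, 1.83 and 1.07 CPM. A single uninjured library, replicate 1, reached the injured range, and the log2 difference was 0.70 (adjusted p = 0.101). Without that library it was 1.05 (adjusted p = 0.0127). Injured C57BL/6 joints at 1-week were at 2.37, 1.34, 1.96, 1.89 and 2.10 CPM and uninjured ones at 1.15, 1.31, 1.43, 1.05 and 0.983 CPM, with a log2 difference of 0.73 (adjusted p = 0.0811, and 0.0478 without STR/ort uninjured replicate 3, which enters the estimate of the spread). In the other direction, Hdc and Kit were lower in injured C57BL/6 joints at 1-day, with log2 differences of -0.45 (adjusted p = 0.00262) and -0.35 (adjusted p = 0.0122), both under 1.5-fold. At 2-weeks, where the labels give the animal of each joint, Kit and Hdc were lower in the injured joint in 5 of 5 C57BL/6 and 5 of 5 STR/ort animals. Tpsb2 was lower in the injured joint in 5 of 5 C57BL/6 animals, by log2 differences of -0.49 to -0.07, the opposite of its direction in the other 8 injury comparisons. Fcer1a was lower in 5 of 5 STR/ort animals, by -1.01 to -0.04. Kit was higher in the injured joint in 3 of 5 MRL/MpJ animals, as was Hdc.

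**Figure D3:**
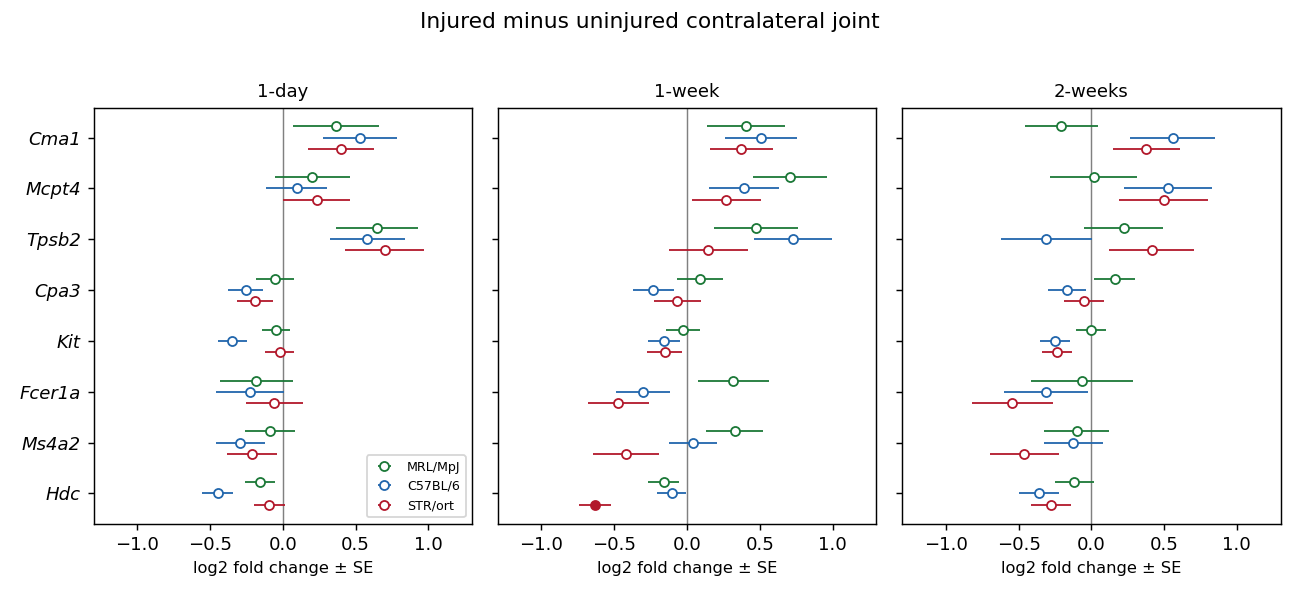
Log2 difference of injured minus uninjured contralateral joints (horizontal axis) for each of the 8 genes (vertical axis) in 1 panel for each time, with strains in colours and the SE as bars. A filled point passed both limits of a call, and the single filled point is Hdc in STR/ort at 1-week, at -0.63.

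Whether the injury effect itself differed between strains was tested as an interaction. None of the 72 tests of a member was called by edgeR, and DESeq2 gave 0 calls as well. An unadjusted p under 0.05 was found in 7, again without the share of all genes. The background was low too. At 1-day 0 of 8 members were called against 0.318% of all genes for C57BL/6 minus MRL/MpJ, 0.162% for STR/ort minus MRL/MpJ and 2.66% for STR/ort minus C57BL/6. At 1-week the shares of all genes were 0%, 0.884% and 0.491%, and at 2-weeks 0%, 0.451% and 0.0462%, with 0 members at each. The lowest adjusted p was 0.0994, for the Hdc effect at 1-week in STR/ort minus C57BL/6 (log2 difference of effects -0.53 ± 0.148). Without uninjured C57BL/6 replicate 5 of 1-week, which had 79.7 CPM of Hdc against 52.2 to 61.1 in the other 4, this interaction was called, at -0.64 (adjusted p = 0.0130). With the replicate number as a block it was -0.56 (adjusted p = 0.0217), with a fold under 1.5.

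Change with time was compared within each strain over 0-day, 1-day and 1-week, which share a batch. In C57BL/6 the chymase and tryptase genes were lower at 1-week, in both injured and uninjured joints. In uninjured C57BL/6 joints 3 of 8 members were called at 1-week against 0-day (5.54% of all genes) and 0 at 1-day against 0-day (0.0462%), and in injured joints 5 of 8 at 1-week against 1-day (4.35%). STR/ort gave 1 of 8 at 1-day (8.89%), 1 at 1-week (12.6%) and 1 in injured joints (13%). MRL/MpJ gave 0 in each, against 0.156%, 0% and 3.52% of all genes.

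Mcpt4 fell in injured C57BL/6 joints from the values given above for 1-day to 4.02, 3.29, 4.42, 4.74 and 2.67 CPM at 1-week, without overlap (log2 difference -1.13 ± 0.211, adjusted p = 0.000579). In uninjured joints it fell from the 0-day values to 2.66, 3.02, 2.77, 2.02 and 4.42 CPM (log2 difference -0.97 ± 0.241, adjusted p = 0.00786). Tpsb2 fell likewise, by 0.82 in injured (adjusted p = 0.0100) and 0.89 in uninjured joints (adjusted p = 0.0244) on the log2 scale. Cma1 fell by 0.78 in injured (adjusted p = 0.0193) and by 0.96 in uninjured joints (adjusted p = 0.0131). The uninjured Cma1 call was lost without C57BL/6 0-day replicate 1 (adjusted p = 0.0619) and the uninjured Tpsb2 call without 0-day replicates 1 or 3 or 1-week replicate 4 (adjusted p up to 0.109). The injured Cma1 call was lost under scaling to the housekeeping genes and without 1-day replicate 1 or 1-week replicate 3 (adjusted p up to 0.105). Both Mcpt4 calls and the injured Tpsb2 call held throughout.

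Hdc moved the other way in the same injured C57BL/6 joints. It was at 39.5, 35.5, 30.1, 35.3 and 34.6 CPM at 1-day and rose to 50.9, 52.9, 57.5, 56.4 and 61.6 CPM at 1-week, without overlap (log2 difference 0.67 ± 0.116, adjusted p = 0.000237). The part of neutrophil and basophil precursors in this rise was not tested. Fcer1a was called higher by 0.59 (adjusted p = 0.0402), a call lost under RUVg with 1 factor, in DESeq2, with the compared groups fitted alone and without 1-day replicate 1, 2, 3 or 4 or 1-week replicate 1, 3 or 4 (adjusted p up to 0.132). In STR/ort the 3 calls were Ms4a2 at 1-day in uninjured joints (0.73, adjusted p = 0.0490), Mcpt4 at 1-week in uninjured joints (0.81, adjusted p = 0.0359) and Ms4a2 at 1-week in injured joints (-0.70, adjusted p = 0.0396). All 3 were lost under RUVg and without any of 6 or more single libraries, while their log2 differences without 1 library stayed between 0.57 and 0.93, 0.68 and 1.03, and -0.83 and -0.56, respectively. The summed basophil genes moved with both Ms4a2 calls. They were at 63.6 to 99.0 CPM at 0-day and 85.3 to 133 CPM at 1-day in uninjured STR/ort joints (0 of 4 called), and at 65.0 to 123 CPM at 1-day and 45.3 to 72.8 CPM at 1-week in injured ones (2 of 4 called lower, against 13% of all genes called). Their part in the Ms4a2 calls was not tested.

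The members were then compared with each other from library to library. Each gene's log2 CPM was centred on its group mean, so that strain, time and injury played no part, and 28 pairs were correlated over 100 libraries with labels permuted within groups. The joints of an animal at 2-weeks are not independent, and all points of a library share its depth. The 8 genes fell into 2 sets. Cma1, Mcpt4 and Tpsb2 varied together, with Pearson r of 0.56 for Cma1 and Tpsb2 (Spearman rho 0.56, both p = 1e-05, the smallest the permutations can give, adjusted p = 9.33e-05 for r and 0.00014 for rho), 0.45 for Mcpt4 and Tpsb2 (rho 0.44, p = 3e-05 for r, adjusted p = 0.000168) and 0.37 for Cma1 and Mcpt4 (rho 0.35, p = 0.00043 for r, adjusted p = 0.0015).

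Cpa3, Kit, Fcer1a, Ms4a2 and Hdc formed the other set. Cpa3 correlated with Ms4a2 at r = 0.52 (rho 0.48), with Kit at 0.51 (rho 0.53), with Fcer1a at 0.47 (rho 0.45) and with Hdc at 0.35 (rho 0.31), by permutation with an adjusted p for r of 0.0038 or lower. Kit and Hdc gave 0.45 (rho 0.34, p = 0.00032 for r, adjusted p = 0.00128) and Ms4a2 and Hdc 0.45 (rho 0.45, p = 2e-05 for r, adjusted p = 0.00014), both by permutation. Of the 10 pairs within this set, Kit and Fcer1a alone missed the threshold (r = 0.16, adjusted p = 0.21). The 15 pairs across the sets had r between -0.22 and 0.20, and none had an adjusted p for Pearson's r under 0.05. By Spearman's rho, Cma1 and Ms4a2 alone passed (rho -0.27, adjusted p = 0.0371). Without the 2 libraries farthest from the median, r of the pairs past the threshold for Pearson's r stayed between 0.26 and 0.57. It was lowest for Fcer1a with Hdc (0.26) and Kit with Ms4a2 (0.27). Within batch 1 and batch 2, r was 0.53 and 0.63 for Cma1 with Tpsb2 and 0.64 and 0.30 for Cpa3 with Ms4a2. Across the sets Cma1 and Ms4a2 gave -0.43 in batch 1 and 0.18 in batch 2.

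Marker genes of other cells were set beside these deviations after the 2 sets had been seen, in 48 relations. Mcpt8 correlated with Cpa3 at r = 0.70 (rho 0.68), with Ms4a2 at 0.65 (rho 0.65), with Fcer1a at 0.52 (rho 0.50), with Hdc at 0.49 (rho 0.49) and with Kit at 0.44 (rho 0.43). Each of these had a permutation p for r of 4e-05 or lower and an adjusted p of 0.00012 or lower, and r within batch 1 and batch 2 was 0.74 and 0.62 for Cpa3. Without the 2 farthest libraries the Cpa3 value was 0.67. Prss34, the other basophil protease, gave 0.65 with Cpa3 (rho 0.62) and 0.66 with Ms4a2 (rho 0.63). The summed marrow neutrophil genes correlated with Hdc at r = 0.79 (rho 0.77, 0.75 and 0.85 within the batches) and with Kit at 0.67 (rho 0.60), and the progenitor genes Cd34, Flt3, Gata1 and Myb with Kit at 0.63 (rho 0.60), each at the smallest p the permutations can give.

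Cma1, Mcpt4 and Tpsb2 showed none of these relations. Their r with Mcpt8 was -0.12, -0.10 and -0.22, with the neutrophil genes -0.21, -0.18 and -0.14, and with the progenitor genes -0.07, -0.12 and 0.02. Mcpt4 alone of the 3 had an adjusted p under 0.05 with any marker, the fast muscle genes, at r = 0.28 (adjusted p = 0.0261). Kit and Hdc had r of -0.52 and -0.51 with those muscle genes. What the share of mast cells, basophils and marrow in a joint contributed to each gene was not tested.

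**Figure D4:**
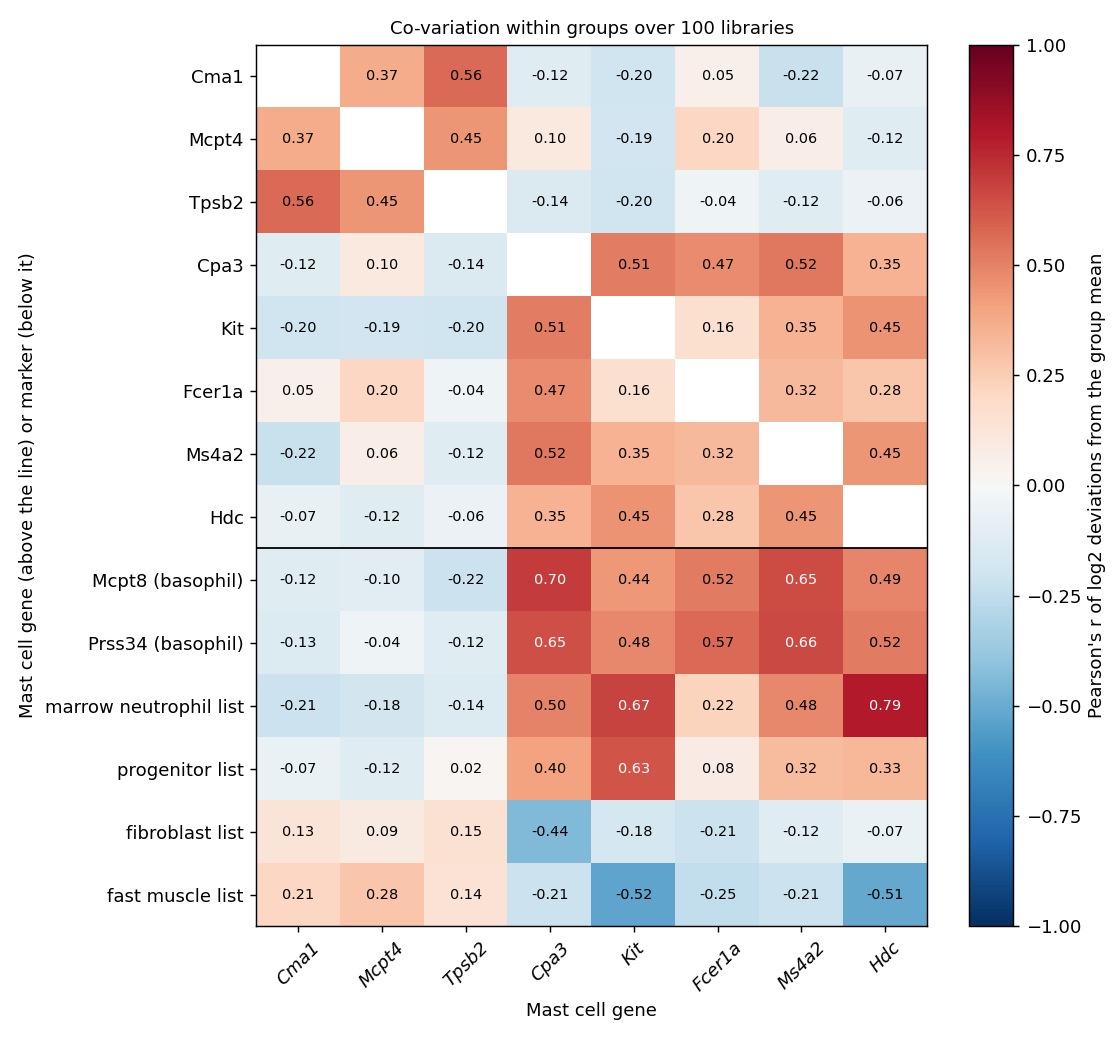
Pearson r of the deviations of log2 CPM from the group means over 100 libraries, shown by colour from -1 to 1 and printed in each cell, between the 8 genes and between these and the markers. Cma1, Mcpt4 and Tpsb2 are positive with each other (0.37 to 0.56), and Cpa3, Kit, Fcer1a, Ms4a2 and Hdc are positive with each other and with Mcpt8.

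The wider set of mast cell genes was described from lists of 13 further mast cell genes, 14 genes of FceRI and KIT signalling, 8 growth factors, cytokines and their receptors, and 12 genes of mediator synthesis and reception present in the table. Genes were named from the lists mostly because they were called, so they do not stand for their list. The summed 13 further mast cell genes were lower in injured joints in 6 of 9 comparisons, at ratios of 0.850 to 1.08. The summed 8 growth factors, cytokines and their receptors were lower in 0 of 9, at ratios of 1.00 to 1.57. Among the further mast cell genes 2 proteases differed between strains far more than any of the 8. Mcpt2, a chymase gene of the same cluster (chromosome 14, 56021584 to 56044635), was at 7.77 ± 1.48 CPM in STR/ort at 0-day, 0.283 ± 0.174 in MRL/MpJ and 0.239 ± 0.13 in C57BL/6 (SD, n = 4 each). The log2 difference of STR/ort was 4.66 from MRL/MpJ and 4.88 from C57BL/6, and it was called in all 14 comparisons of STR/ort with the others. Counts in the other strains were 0 to 5 a library, so these differences depend on the prior count. RefSeq places Mcpt9 within the span of Mcpt2, and stretches shared by Mcpt2 with other genes were not computed.

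Mcpt2 rose with injury in STR/ort, where it was measurable. At 1-day it was at 18.9 ± 2.79 CPM in injured and 11.5 ± 1.86 in uninjured joints (SD, n = 5 each), without overlap (log2 difference 0.69 ± 0.153, adjusted p = 0.00258). At 1-week it was at 16.7 ± 2.13 (SD, n = 5) and 10.7 ± 1.35 CPM (SD, n = 4), again without overlap (0.65 ± 0.175, adjusted p = 0.00759). At 2-weeks the difference was 0.35 (adjusted p = 0.28) and was not called.

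Tpsab1, the other tryptase gene, was the reverse. It was at 1.03 ± 0.377 CPM in MRL/MpJ at 0-day, 0.0648 ± 0.0790 in C57BL/6 and 0.102 ± 0.138 in STR/ort (SD, n = 4 each), and was called higher in MRL/MpJ in all 14 comparisons of that strain. RefSeq lists it as a transcribed pseudogene in its C57BL/6J reference. In MRL/MpJ at 1-day it rose in injured joints, to 2.80 ± 0.968 from 1.28 ± 0.692 CPM (SD, n = 5 each, log2 difference 1.16 ± 0.293, adjusted p = 0.0161), with overlap between the groups. Reads of all strains were aligned to the C57BL/6J sequence, and 10.6% of the 31-base stretches of Cma1, 12.2% of those of Mcpt4 and 0.557% of those of Tpsb2 occur in another gene, so a strain difference in these families may include reads placed on a related copy, which was not tested.

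**Figure D5:**
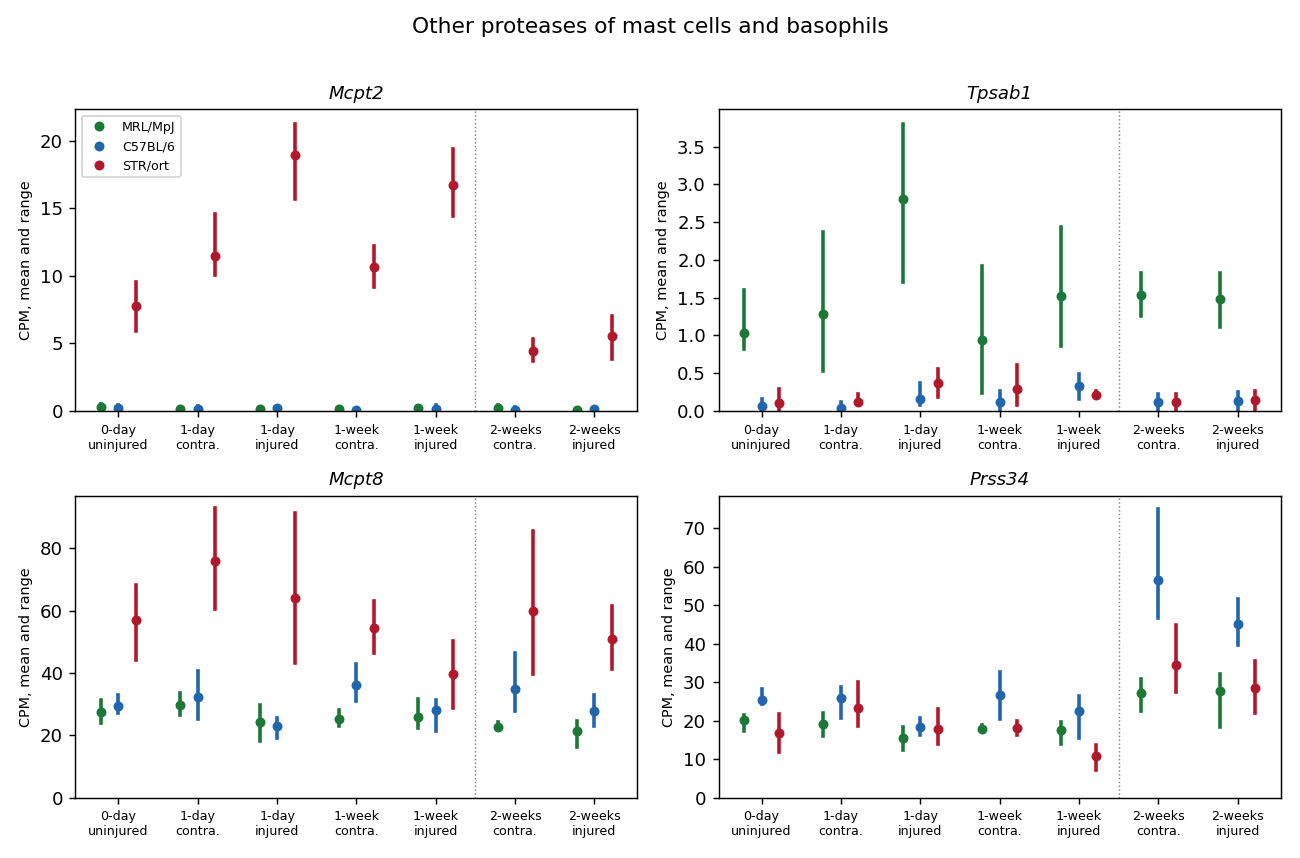
Mean CPM (points) with the lowest and highest library (bars) of the protease genes Mcpt2, Tpsab1, Mcpt8 and Prss34 (vertical axis, CPM, linear), by time and joint (horizontal axis) and strain (colours). Mcpt2 is high in STR/ort, at 18.9 CPM in injured joints at 1-day, and Tpsab1 in MRL/MpJ.

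Signals that act on mast cells were looked at for the same injury comparisons. Il33, an alarmin released by stromal and endothelial cells, rose in injured joints in 8 of 9 comparisons, by log2 differences of 1.05 to 1.55, and was not called in MRL/MpJ at 2-weeks (0.43, adjusted p = 0.73). Its receptor gene Il1rl1 rose in STR/ort at each time, by 0.90 at 1-day (adjusted p = 5.89e-06), 1.52 at 1-week (adjusted p = 4.05e-08) and 0.66 at 2-weeks (adjusted p = 0.00543), and was not called in the other strains. The Il1rl1 effect at 1-week in STR/ort differed from those of both other strains, by 1.45 ± 0.226 from MRL/MpJ (adjusted p = 0.00078) and 1.37 ± 0.216 from C57BL/6 (adjusted p = 0.000919) on the log2 scale. Il4ra, the interleukin 4 receptor, rose at 1-day in all 3 strains by 1.47 to 1.61. F2rl1, which encodes a receptor that tryptase cleaves, rose in C57BL/6 at 1-day (1.47) and 1-week (0.85) and in STR/ort at 1-week (2.15) and 2-weeks (1.02). Kitl, the gene of stem cell factor, was between -0.14 and -0.0032 in all 9 comparisons and was never called.

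Of the 14 genes of receptor signalling, 0 were called in 8 of the 9 injury comparisons and 1 was called lower in STR/ort at 1-week. With 1.16% to 9.21% of all genes called, as given above, these counts are no result about this list. The called gene was Lat, an adaptor of receptor signalling, at -0.73 (adjusted p = 0.00100). In that comparison the median log2 difference of the list was -0.36, against -0.033 over all genes, and its summed level was 1004 to 1104 CPM in injured and 1191 to 1422 CPM in uninjured libraries, without overlap. The marrow neutrophil, basophil and eosinophil genes had median log2 differences of -0.63 to -0.59 in that comparison, as given for Hdc, and the 4 T cell genes Cd3d, Cd3e, Cd4 and Cd8a, cells that also use Lat, had a median of -0.44 with 0 called. Summed T cell genes were at 13.1 to 18.2 CPM in injured and 16.3 to 19.7 CPM in uninjured libraries, and were lower in the injured joint in 9 of 9 comparisons. The part of these cells in the level of the list was not tested. Of the 12 mediator genes, 1 was called higher in 6 of the 9 comparisons and 0 in the other 3, against the same shares of all genes, so 1 of 12 is no result about this list. The called gene was F2rl1 in the 4 comparisons given above and Ace, the angiotensin-converting enzyme gene, in MRL/MpJ at 1-week (0.68) and 2-weeks (0.59). Gata2, a transcription factor gene of mast cells and progenitors, had log2 differences with injury between -0.24 and 0.04 and gave no call, and neither did Mitf, at -0.06 to 0.34.

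The genes most like the 8 members over the 21 group means were ranked by Pearson r of log2 CPM, as a description. These means span both batches, and what the batch contributed to r was not tested. Against the mean of the members scaled alike they were F8 (0.892), 5430427O19Rik (0.871), 3110045C21Rik (0.868), Ehf (0.863) and Fcer1g (0.862), the gene of the gamma chain of FceRI. Against single members the first were Hmgn1 for Cma1 (0.957), Rgl1 for Mcpt4 (0.942), Cd180 for Cpa3 (0.923), Tnfrsf11a for Tpsb2 (0.851), Vps13b for Kit (0.944), Gm8221 for Fcer1a (0.951), Ccl5 for Ms4a2 (0.883) and Zfp933 for Hdc (0.913). The neutrophil growth factor receptor gene Csf3r was next for Hdc (0.904).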

How the data were processed

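Raw read counts of RefSeq genes were used as deposited. Per the labels and the study's methods, the authors aligned reads of poly(A)-selected libraries to mm10 with TopHat2 2.0.11 and counted them with featureCounts. Of 17313 listed genes, 3 repeated entries were dropped, and 24 names had been turned into dates. The authors' filter (2 counts in 5 libraries) removed 0 of the 17310 left. Counts were fitted with edgeR 4.0.16 quasi-likelihood (glmQLFit, glmQLFTest, two-sided) in R 4.3.3 after TMM scaling, over the groups of 1 time point, or over 1 strain for time within batch 1, with Benjamini-Hochberg adjustment over all genes. A call needed an adjusted p under 0.05 and a fold over 1.5. CPM used TMM-scaled library sizes, and log2 CPM a prior count of 2. The scripts were tested on simulated data. Library totals had a median of 10582592, and the small counts of the low genes limit their precision. The study normalised by RUVSeq with housekeeping genes, with settings not given in the sources used here, so RUVg is an alternative. Others were RLE factors, scaling to 25 housekeeping genes, DESeq2 1.42.0, filterByExpr, no filter, the compared groups alone, the replicate number as a block and each library left out. Named members are all 8, and other genes come from the lists or the 10 and 3 most alike. The members and lists were chosen with earlier results of these data known. Correlations used 100 libraries, and promoter windows came from RefSeq on GRCm38.p6. Joints of an animal at 2-weeks are paired by label, and at 1-week in STR/ort same-numbered joints correlated at 0.102 or above in every pair. Other equal numbers were not taken as pairs.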

Additional observations from a re-analysis of the deposited data

Results flagged for a closer look

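Single libraries stood apart from their group in 8 of 168 combinations of a gene and a group of 4 or 5, by a gap test that chance alone would pass in about 1 of 20. Cma1 was at 11.5 CPM in injured C57BL/6 replicate 1 at 1-day (others 5.12 to 5.99). Mcpt4 was at 6.78 CPM in uninjured STR/ort replicate 1 at 1-day (others 3.39 to 4.04) and at 2.82 CPM in uninjured STR/ort replicate 2 at 2-weeks (others 1.17 to 1.42). Fcer1a was at 2.09 CPM in injured MRL/MpJ replicate 3 at 1-day (others 1.16 to 1.41). Ms4a2 was at 4.76 CPM in uninjured STR/ort replicate 3 at 1-day (others 2.86 to 3.38) and at 1.63 CPM in uninjured STR/ort replicate 1 at 1-week (others 2.63 to 2.70). Hdc was low in injured MRL/MpJ replicate 5 at 1-day, at 42.7 CPM (others 51.7 to 54.0), and in injured MRL/MpJ replicate 4 at 2-weeks, at 36.8 CPM (others 58.6 to 66.3).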

How the results depend on the processing

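Of 59 calls, 22 held under every alternative setting, 36 with any 1 library left out and 17 under both, and no call changed direction. RUVg with 1 factor ended 22 calls and with 2 factors 33, scaling to housekeeping genes 7, fitting the compared groups alone 4 and DESeq2 3, while RLE factors, filterByExpr, no filter and the replicate block ended 0. The filter removed 0 genes, so the fit with no filter is the main fit and could not end a call. The replicate block was fitted for injury and interaction alone, where 1 of the 59 calls lay. RUVg with 2 factors made 1 strain call at 0-day (of the 10), 12 in contralateral joints (8 of the 22 and 4 others) and 16 in injured joints (8 of the 15 and 8 others). The cause was not tested. Injury calls numbered 2 with the compared groups alone (with Tpsb2 in C57BL/6 at 1-week, adjusted p = 0.0475) and 2 with the replicate block (with Tpsb2 in STR/ort at 1-day, log2 difference 0.74, adjusted p = 0.0467), against 1. At 1-day the labels do not say whether equal numbers pair the joints. The replicate block, paired by animal at 2-weeks, changed no other call, and gave -0.66 for Hdc in STR/ort at 1-week. With 1 library left out, calls ranged from 7 to 11 at 0-day, 19 to 25 in contralateral joints, 13 to 17 in injured joints, 0 to 2 for injury, 0 to 1 for the interaction and 9 to 13 for time. Cpa3 at 1-day against 0-day in uninjured STR/ort joints, 0.55 and not called, became -0.024 and -0.00101 under RUVg with 1 and 2 factors. Without TMM scaling, 8 of 56 strain orders and the highest strain in 5 changed. Scaling to housekeeping genes moved the median of all genes by over 0.1 in 8 comparisons, 7 of them of STR/ort minus another strain at 1-day or 1-week (shifts of -0.182 to -0.113) and 1 of time in injured C57BL/6 joints (0.152). The low counts of Tpsb2, Mcpt4, Cma1 and Fcer1a limit them, with a median SD of 29.8%, 28.5%, 27.8% and 24.4% of the group mean.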
